A study of Mus musculus with 12 samples.

Results

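The 10 genes described here encode receptors of the tumor necrosis factor (TNF) family, the adaptors and the kinase that relay their signal, and subunits of the transcription factor NF-kB. They were chosen by symbol: Cd40, Tnfrsf11a, Tnfrsf11b, Ltbr, Map3k14, Traf3, Traf6, Relb, Nfkb2 and Rela, 10 of the 34547 genes with a measured transcript. All 10 were found in the 12 mouse libraries and in the authors' table of rlog values. The libraries came from thymic epithelial cells (TEC) of 2 subsets, cortical (cTEC) and medullary (mTEC), each sorted from wild type (WT) C57BL/6 mice and from Aβ0/0 mice, which lack MHC class II (MHCII) through a disrupted H2-Ab1 gene. Each of the 4 groups held 3 libraries, and each library came from a pool of 5–10 mice aged 4–6 weeks, with no further treatment. The sort took Epcam+CD45-Ly51+UEA1- cells as cTEC and Epcam+CD45-Ly51-UEA1+ cells as mTEC. Aβ0/0 mice lack MHCII in every cell type, and the purchased WT mice were not described as littermates of them. The study compared the genotypes within each subset, and the libraries also allow the subsets to be compared within each genotype.

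In the thymic medulla, RANK (encoded by Tnfrsf11a), CD40 and the lymphotoxin beta receptor (Ltbr) receive ligands from thymocytes and lymphoid cells, and osteoprotegerin (Tnfrsf11b) is a soluble decoy that captures the RANK ligand. Without ligand, TRAF3 holds the kinase NIK (Map3k14) at a low level; a bound receptor releases NIK, and the p100 protein encoded by Nfkb2 is then processed to p52, which pairs with RelB. This alternative route is known to be needed for mTEC development, while RelA carries the classical route, to which TRAF6 couples RANK and CD40.

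Promoter windows of 250 bases before the annotated start were taken from RefSeq (GRCm38.p6, the same assembly as the mm10 build of the files). They were held for 7 of the 10 genes, with 3 start sites for Nfkb2; no window was held for Cd40, Tnfrsf11b and Relb. The kappaB consensus, the site that NF-kB dimers bind, was searched on both strands. It was found for 2 of the 7 genes, Nfkb2 and Traf3, and in 3.9% of all 32851 windows. The windows below are shown because Nfkb2 differed between the subsets in both genotypes, Traf3 also carries the motif but did not pass any test between groups, and Tnfrsf11a, a gene with a far larger difference, carries none in its window. Capitals mark the kappaB consensus. The Nfkb2 window printed is that of the first of its 3 start sites. It held 3 matches, the first 2 of which overlap by all but 1 base, at 39, 38 and 11 bases before the start, and the windows of the other start sites held 1 match each. Windows with 3 or more matches were 0.0426% of all windows.
Nfkb2 (chr19:46304487-46304736, plus strand): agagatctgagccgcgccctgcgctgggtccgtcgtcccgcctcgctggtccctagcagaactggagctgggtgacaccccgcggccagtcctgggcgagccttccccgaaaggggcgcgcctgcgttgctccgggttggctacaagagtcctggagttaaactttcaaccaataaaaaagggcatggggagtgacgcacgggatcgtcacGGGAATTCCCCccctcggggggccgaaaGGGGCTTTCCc
Traf3 (chr12:111166120-111166369, plus strand): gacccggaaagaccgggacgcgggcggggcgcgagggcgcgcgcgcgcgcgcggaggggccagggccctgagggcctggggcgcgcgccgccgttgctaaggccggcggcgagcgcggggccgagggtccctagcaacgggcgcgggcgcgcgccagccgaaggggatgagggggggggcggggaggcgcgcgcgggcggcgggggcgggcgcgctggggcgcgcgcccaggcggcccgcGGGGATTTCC
Tnfrsf11a (chr1:105780473-105780722, plus strand): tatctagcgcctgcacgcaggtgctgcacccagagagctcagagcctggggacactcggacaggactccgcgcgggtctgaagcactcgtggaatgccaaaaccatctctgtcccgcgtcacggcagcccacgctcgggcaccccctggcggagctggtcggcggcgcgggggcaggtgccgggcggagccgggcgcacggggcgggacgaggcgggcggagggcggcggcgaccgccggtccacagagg

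Libraries held 21710319 to 36139815 estimated counts. H2-Ab1, the targeted gene, was measured at 6507–11200 CPM (counts scaled to library size with TMM factors) in the 6 WT libraries and at 1900–3853 CPM in the 6 Aβ0/0 libraries, without overlap, so transcripts of the disrupted gene were still counted. Epcam, the epithelial surface marker of the sort, was at 431–582 CPM in cTEC and 889–1245 CPM in mTEC. Psmb11, the cTEC proteasome subunit, was at 560–1593 CPM in cTEC and 18.4–44.5 CPM in mTEC; Aire, the mTEC regulator of self-antigen expression, was at 121–1003 CPM in mTEC and 0.248–12.5 CPM in cTEC. Markers of other cells were present. Summed over 12 thymocyte genes, cTEC held 385–1174 CPM and mTEC 77.0–217.9 CPM. Fibroblast genes, summed over 9, were at 2399–3219 CPM in cTEC, mostly Dcn, and at 227.7–517.6 CPM in mTEC. In bulk samples, fewer cells of a type and less RNA per cell cannot be told apart.

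Of the 10 genes, Cd40 was the one whose genotypes did not overlap in either subset, and the direction was opposite in mTEC and cTEC. Cd40 (ENSMUSG00000017652, chr2:165055627-165072948, GRCm38) encodes the receptor of CD40 ligand on activated T cells. In WT mTEC it was at 232, 225 and 201 CPM, and in Aβ0/0 mTEC at 48.3, 159 and 80.6 CPM. The lowest WT mTEC library lay above the highest Aβ0/0 one, and the Aβ0/0 libraries were far more spread. WT cTEC held 17.7, 14.6 and 12.4 CPM, and Aβ0/0 cTEC 34.7, 64.2 and 25.0 CPM. Here every Aβ0/0 library lay above every WT library. The same separation was seen with library totals in place of TMM factors, in TPM (scaled for transcript length as well as library size) and in the authors' rlog values.

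None of these differences of Cd40 passed the test. In mTEC the mean was 219 ± 16.0 CPM (SD, n = 3) in WT and 96.1 ± 57.2 CPM (SD, n = 3) in Aβ0/0, a log2 fold change (WT over Aβ0/0) of 1.18 (SE 0.40; edgeR quasi-likelihood test, Benjamini-Hochberg adjusted p = 0.202). In cTEC the means were 14.9 ± 2.66 and 41.3 ± 20.4 CPM (SD, n = 3 each), a log2 fold change of -1.45 (SE 0.44; edgeR adjusted p = 1.00). With DESeq2 fitted on all 12 libraries this cTEC difference had an adjusted p of 0.0497, and without Aβ0/0 cTEC replicate 2 the log2 fold change was -0.997. The difference between the 2 genotype effects (mTEC minus cTEC) was 2.66 on the log2 scale (SE 0.60, 95% confidence interval 1.36 to 3.97; edgeR adjusted p = 0.350). By DESeq2 the adjusted p of this interaction was 0.0020 and by limma on the rlog values 0.0103, so the call depended on the tool.

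Some marker genes of other cells differed between the genotypes too. In mTEC, 5 of 10 macrophage genes and 8 of 14 dendritic and B cell genes were higher in every WT library than in every Aβ0/0 library, and none was lower, where 26.4% of all genes tested had libraries that did not overlap. So were 4 of 9 mTEC markers, Aire among them, and 2 of 10 cTEC markers. Adgre1 was at 11.3–22.3 CPM in WT mTEC and at 0 in all 3 Aβ0/0 mTEC libraries. Cd79a, a B cell receptor component, was at 3.60–5.56 CPM in WT and 0–0.784 CPM in Aβ0/0. Itgax was at 0.469–1.54 CPM in WT and at 0 in Aβ0/0. The summed level did not separate the genotypes: macrophage genes, dominated by Lyz2, were at 642–683 CPM in WT and 116–665 CPM in Aβ0/0, and dendritic and B cell genes at 101.5–126.6 and 100.1–128.5 CPM. B cells, dendritic cells and macrophages are known to express CD40, and the sort for CD45-Epcam+ cells should have removed them. In cTEC, 5 of 12 thymocyte genes were higher in every Aβ0/0 library, where 7.85% of all genes tested did not overlap, and the sum of the 12 was 385–662 CPM in WT and 781–1174 CPM in Aβ0/0, while the summed macrophage genes ran opposite to Cd40, at 74.2–287.6 CPM in WT and 10.2–48.6 CPM in Aβ0/0. Summed dendritic and B cell genes overlapped there, at 70.1–98.5 and 70.0–108.6 CPM. Summed epithelial genes were higher in Aβ0/0 cTEC as well, at 7059–10020 CPM against 4836–6832 CPM. Of these 4 genes, 2 were higher in every Aβ0/0 cTEC library. The sort marker Epcam ran the other way, at 556–582 CPM in WT cTEC and 431–544 CPM in Aβ0/0 cTEC, without overlap. The part of these markers in the Cd40 values was not tested. The study's sorting records gave fewer mTEC from each Aβ0/0 pool than from any WT pool, and this too was not tested.

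The remaining 9 genes overlapped between the genotypes in both subsets, and no gene of the 10 was called in either. By edgeR, 5.66% of the 18636 genes tested in mTEC were called and 26.4% had libraries that did not overlap; in cTEC 0.0194% of 15432 were called and 7.85% did not overlap. The mTEC figure is unstable: 1054 genes were called as reported, 27 with no filter on low counts, 11 with a mean of at least 10 counts, 0 with a replicate block, 20 with edgeR on all 12 libraries and 2440 by DESeq2. Without WT mTEC replicate 1, 2 or 3 edgeR called 0 genes, and without Aβ0/0 mTEC replicate 1, 2 or 3 it called 2377, 83 and 13. At an unadjusted p under 0.05 edgeR counted 1 of the 10 genes in mTEC and 1 in cTEC, both Cd40. DESeq2 and limma on the 6 libraries called none in either subset. For the RANK gene in mTEC the log2 fold change (WT over Aβ0/0) was 0.31, with a 95% confidence interval of -0.14 to 0.75. For Relb it was 0.28 (-0.41 to 0.98), for Nfkb2 0.31 (-0.28 to 0.91) and for Rela -0.03 (-0.80 to 0.74). Of the 10 genes, the intervals were widest for Traf3 (-1.18 to 1.10) and Traf6 (-0.73 to 1.79). In the interaction, no member was called by edgeR against 0.0103% of 19461 genes, and 1 (Cd40) had an unadjusted p under 0.05. DESeq2 and limma each called 1, Cd40, where they called 398 of 27577 and 943 of 18969 genes tested.

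**Figure D1:**
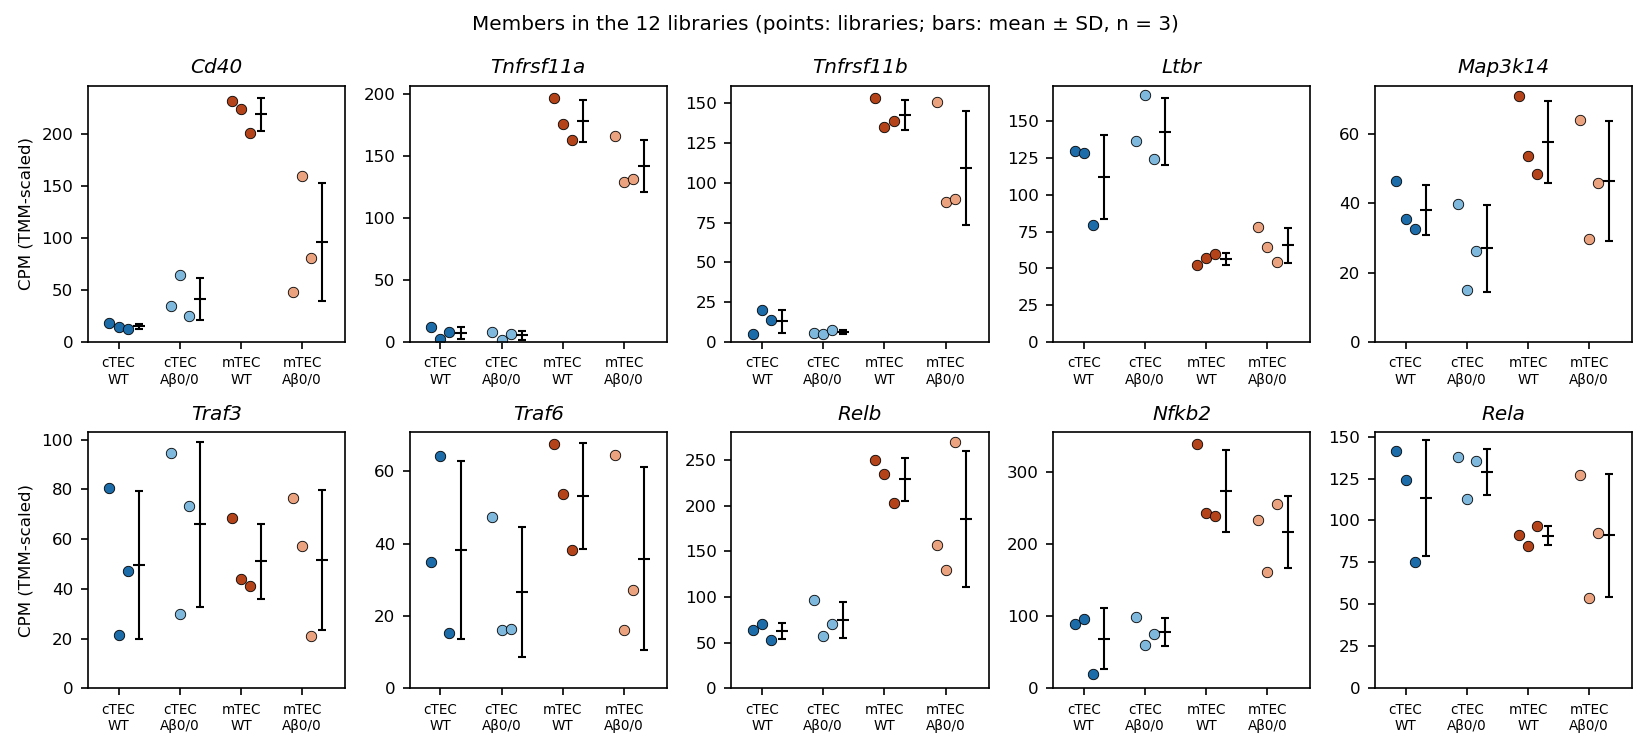
Level of each of the 10 genes in CPM (vertical axes, linear from 0) in the 12 libraries, by subset and genotype; points are libraries and bars the mean ± SD (n = 3). Tnfrsf11a and Tnfrsf11b sat near 0 in cTEC and at 87.8 CPM or more in every mTEC library, and Cd40 separated the genotypes in opposite directions in cTEC and mTEC.

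Between the subsets, 6 of the 10 genes were called in WT, 5 of them higher in mTEC, against 26.8% of the 18667 genes tested called and 18% called higher in mTEC. The libraries of 7 of the 10 did not overlap, against 47.2% of genes tested. In Aβ0/0, 3 of the 10 were called, all higher in mTEC, against 5.6% of 15687 genes called and 3.45% called higher in mTEC, and 5 did not overlap, against 27.8%. The median log2 fold change (mTEC over cTEC) of the 10 genes was 1.24 in WT and 0.99 in Aβ0/0, and that of all genes tested was 0.06 and 0.03. The study's sorting records list cTEC and mTEC yields under each replicate, so same-numbered libraries were taken to share their mice, and a replicate block on that pairing again gave 6 and 3 calls.

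Both genes whose products bind RANK ligand were called higher in mTEC in both genotypes. Tnfrsf11a (ENSMUSG00000026321, chr1:105780718-105847981), the gene of RANK, was at 11.6, 2.10 and 8.30 CPM in WT cTEC and at 197, 176 and 163 CPM in WT mTEC. In Aβ0/0 cTEC it was at 7.74, 1.18 and 6.56 CPM and in Aβ0/0 mTEC at 166, 129 and 131 CPM. Every mTEC library lay above every cTEC library in both genotypes. The log2 fold change was 4.61 (SE 0.59, adjusted p = 0.0017, edgeR) in WT and 4.78 (SE 0.68, adjusted p = 0.010) in Aβ0/0, and the 2 differed by -0.17 (95% confidence interval -2.04 to 1.69).

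Tnfrsf11b (ENSMUSG00000063727, chr15:54250619-54278484), the gene of osteoprotegerin, followed the same pattern. WT cTEC held 5.02, 19.8 and 13.9 CPM and WT mTEC 153, 135 and 139 CPM. Aβ0/0 cTEC held 5.50, 5.21 and 7.69 CPM and Aβ0/0 mTEC 151, 87.8 and 90.0 CPM. The subsets did not overlap in either genotype. The log2 fold change was 3.47 (SE 0.47, adjusted p = 0.0022, edgeR) in WT and 4.16 (SE 0.39, adjusted p = 0.0030) in Aβ0/0. The decoy and its receptor were both higher in mTEC, with a ratio of TPM (Tnfrsf11a over Tnfrsf11b) of 1.21–1.55 in the WT mTEC libraries and 0.870–1.96 in the Aβ0/0 mTEC libraries. From coding transcripts alone, a choice made after seeing the data, the ratio was 0.526–0.596 and 0.557–0.762, so whether the receptor or the decoy was higher depended on the retained-intron transcripts of Tnfrsf11a.

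Cd40 differed between the subsets with an adjusted p under 0.05 in WT and not in Aβ0/0. Its log2 fold change (mTEC over cTEC) was 3.88 (SE 0.24, adjusted p = 1.5e-04, edgeR) in WT. In Aβ0/0, where the highest cTEC library (64.2 CPM) lay above the lowest mTEC library (48.3 CPM), it was 1.20 (SE 0.52, adjusted p = 0.279), and DESeq2 on all 12 libraries gave an adjusted p of 0.0356. Some markers of cells that express CD40 differed between the subsets too. In WT, 10 of 14 dendritic and B cell genes and 6 of 10 macrophage genes were higher in every mTEC library than in every cTEC library. In WT 1 dendritic or B cell gene was higher in every cTEC library. In Aβ0/0 the counts higher in mTEC were 3 of 14 and 2 of 10, with 0 higher in cTEC. In either direction, 47.2% of all genes tested did not overlap in WT and 27.8% in Aβ0/0, so the Aβ0/0 counts were below that share. The part of these markers in the Cd40 difference was not tested. The test of the difference between the genotypes is the interaction given above, which edgeR did not call.

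Ltbr (ENSMUSG00000030339, chr6:125306571-125313885) ran the other way. It was at 130, 128 and 79.1 CPM in WT cTEC and at 52.2, 57.2 and 60.0 CPM in WT mTEC. In Aβ0/0 it was at 136, 168 and 124 CPM in cTEC and at 78.0, 64.6 and 54.2 CPM in mTEC. Every cTEC library lay above every mTEC library, in each genotype. The log2 fold change (mTEC over cTEC) was -0.99 (SE 0.24, adjusted p = 0.0187, edgeR) in WT and -1.13 (SE 0.27, adjusted p = 0.0518) in Aβ0/0. The WT call was lost on leaving out WT cTEC replicate 1 (adjusted p = 0.0639) or any of WT mTEC replicates 1, 2 and 3 (0.0851, 0.0767 and 0.0673). The Aβ0/0 difference was called by DESeq2 (adjusted p = 2.9e-04), by limma on the rlog values (0.0341) and by edgeR on all 12 libraries (0.0135). Summed fibroblast genes, mostly Dcn, were at 2399–3219 CPM in the cTEC libraries and 227.7–517.6 CPM in the mTEC libraries. In each genotype, 5 of the 9 were higher in every cTEC library and 0 in every mTEC library. Of all genes tested, 47.2% did not overlap in WT and 27.8% in Aβ0/0. Pdgfra, the defining fibroblast gene, was at 0–6.59 CPM in cTEC and 0–4.77 CPM in mTEC. Fibroblasts are known to express Ltbr, and the Epcam+ gate should have removed them. Their part in the Ltbr difference was not tested.

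**Figure D2:**
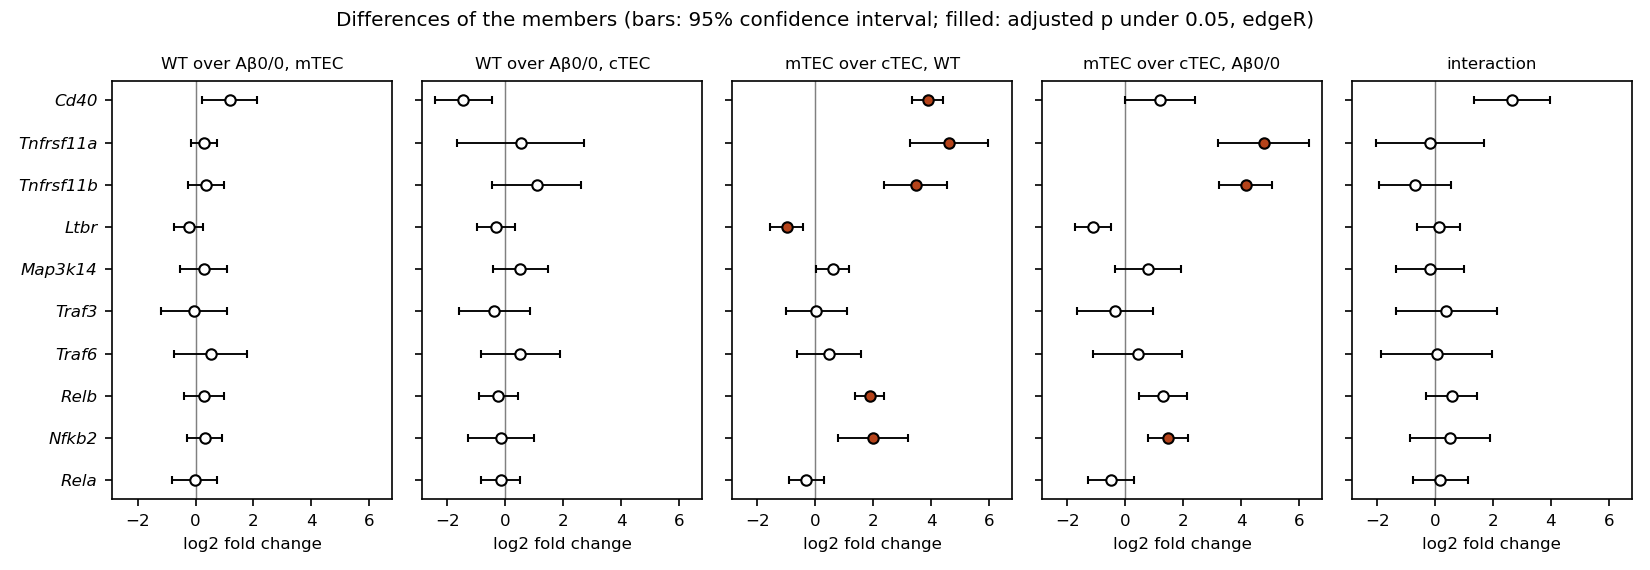
Log2 fold change of each gene (horizontal axes, the same scale in each panel) for WT over Aβ0/0 in mTEC and cTEC, mTEC over cTEC in WT and Aβ0/0, and the interaction; bars are 95% confidence intervals and filled points have an adjusted p under 0.05 by edgeR. The filled points are 6 in WT and 3 in Aβ0/0 between the subsets and none between the genotypes, and the interval of Cd40 crosses 0 in no panel.

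Downstream of the receptors, the genes of the alternative NF-kB pair were higher in mTEC and the gene of the classical subunit did not pass the test. Relb, the partner of p52, was at 63.3, 70.7 and 53.2 CPM in WT cTEC and at 250, 234 and 203 CPM in WT mTEC. Its log2 fold change was 1.88 (SE 0.21, adjusted p = 0.0011, edgeR). In Aβ0/0 it was at 96.6, 57.8 and 70.4 CPM in cTEC and at 157, 129 and 269 CPM in mTEC, again without overlap. There the log2 fold change was 1.30 (SE 0.35, adjusted p = 0.0835), and DESeq2 gave an adjusted p of 0.0113 and edgeR on all 12 libraries one of 0.0162.

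Nfkb2 (ENSMUSG00000025225), the p100 gene whose promoter window is printed above, was at 89.8, 96.6 and 20.6 CPM in WT cTEC and at 339, 244 and 239 CPM in WT mTEC. In Aβ0/0 it was at 98.4, 60.4 and 74.9 CPM in cTEC and at 233, 161 and 256 CPM in mTEC. The subsets did not overlap in either genotype. The log2 fold change was 1.99 (SE 0.53, adjusted p = 0.0262, edgeR) in WT and 1.47 (SE 0.30, adjusted p = 0.0349) in Aβ0/0. The WT call was lost without WT mTEC replicate 1, 2 or 3 (adjusted p = 0.105, 0.0655 and 0.0600). The Aβ0/0 call was lost without Aβ0/0 cTEC replicate 1, 2 or 3 (0.0638, 0.119 and 0.144) without Aβ0/0 mTEC replicate 1 or 3 (0.0932 and 0.107), and with edgeR on all 12 libraries (0.0659). The fold itself stayed between 1.26 and 2.27 on the log2 scale over all alternatives in both genotypes. Of 8 annotated Nfkb2 transcripts 2 were quantified in the files, and of 7 Rela transcripts 1.

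Rela was at 141, 124 and 75.0 CPM in WT cTEC and at 91.3, 85.1 and 96.6 CPM in WT mTEC, with overlap and a log2 fold change of -0.32 (SE 0.26, adjusted p = 0.432, edgeR). Without WT cTEC replicate 3, the lowest library, it was -0.55 (adjusted p = 0.0336). In Aβ0/0 the log2 fold change was -0.50 (SE 0.35, adjusted p = 0.537). Within single libraries, the ratio of TPM of Nfkb2 over Rela was 0.242–0.680 in the 6 cTEC libraries and 1.60–3.24 in the 6 mTEC libraries, and that of Relb over Rela 0.591–0.996 and 1.61–3.74. These ratios need no scaling between libraries, and neither overlapped between the subsets.

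Neither the kinase nor the adaptors passed the edgeR test between the subsets. Map3k14, the gene of NIK, was at 46.4, 35.4 and 32.6 CPM in WT cTEC and at 71.0, 53.6 and 48.6 CPM in WT mTEC. These libraries did not overlap, but the log2 fold change of 0.60 (SE 0.25) was not called (adjusted p = 0.120, edgeR), and in Aβ0/0 the subsets overlapped. Traf3 was at 21.2–80.6 CPM in WT cTEC and 41.0–68.4 CPM in WT mTEC, a log2 fold change of 0.04 (95% confidence interval -1.02 to 1.10). Traf6 was at 15.4–64.3 and 38.1–67.5 CPM, a log2 fold change of 0.48 (-0.64 to 1.59). Both intervals reach beyond 1 on the log2 scale, so these libraries do not exclude differences of this size.

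Compared per length, in TPM, the order of the genes differed between the subsets. In WT cTEC Ltbr was highest, at 79.2 ± 34.0 TPM (SD, n = 3), and Tnfrsf11a lowest, at 1.64–5.51 TPM, though every neighbour in that order overlapped the next. Aβ0/0 cTEC had the same first and last gene, with Ltbr, at 99.2 ± 10.8 TPM, apart from Rela, at 68.5 ± 17.3 TPM. In WT mTEC Cd40 was highest, at 230 ± 35.8 TPM, apart from Relb at 142 ± 24.9 TPM. Nfkb2 (117 ± 35.9 TPM), Tnfrsf11a (86.6 ± 10.4 TPM) and Tnfrsf11b (66.2 ± 11.1 TPM) came next, each overlapping its neighbour. Rela (43.8 ± 5.49 TPM) and Ltbr (37.2 ± 2.73 TPM) followed, apart from Tnfrsf11b above and Map3k14 (19.3 ± 5.98 TPM) below. In Aβ0/0 mTEC Relb was first (110 ± 45.4 TPM) and Cd40 (82.6 ± 33.4 TPM) came after Nfkb2, with every neighbour from Relb to Ltbr overlapping. The TPM of Tnfrsf11a include its retained-intron transcripts, and its place in this order depended on them. From coding transcripts alone, a choice made after seeing the data, Tnfrsf11a over Tnfrsf11b was 0.526–0.596 in WT mTEC and 0.557–0.762 in Aβ0/0 mTEC. Over Ltbr it was 0.902–1.30 in WT mTEC in place of 1.93–2.64, and 0.709–0.794 in Aβ0/0 mTEC in place of 1.16–2.39.

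**Figure D3:**
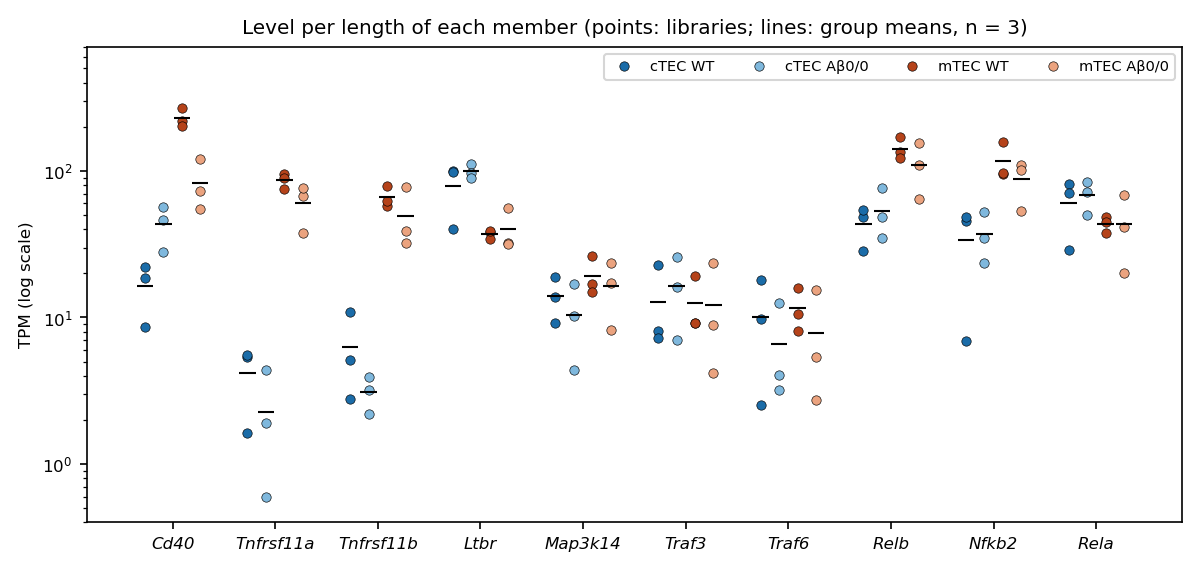
Level per length of each gene in TPM (vertical axis, log scale) in the 4 groups; points are libraries and lines the group means (n = 3). Cd40 was the highest gene in WT mTEC, at 230 TPM, and Ltbr in both cTEC groups, at 79.2 and 99.2 TPM.

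Kallisto divided each gene over its transcripts, and these shares are given as a description. The leading coding transcript held a median of 49.7% of Cd40 TPM in WT mTEC and 58.8% in Aβ0/0 mTEC. A shorter coding transcript held 22.1–22.8% in WT mTEC and 5.60–15.7% in Aβ0/0 mTEC, without overlap, and 13.0–17.5% in WT cTEC against 16.1–24.7% in Aβ0/0 cTEC, with overlap. As a share of estimated counts it held 9.98–10.5% in WT mTEC and 2.36–6.59% in Aβ0/0 mTEC, again without overlap. For Tnfrsf11a the coding transcript held a median of 43.4% of TPM in WT mTEC, and a retained-intron transcript held 47.9%. Since retained-intron transcripts are shorter, the same coding transcript held 81.7% of the estimated counts there. Limited to coding transcripts, the subset difference of Tnfrsf11a was 4.82 on the log2 scale in WT and 4.79 in Aβ0/0. Tnfrsf11b and Rela were each measured by 1 transcript.

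The surrounding pathway was read from 5 lists with 82 further genes: ligands, other TNF receptors, adaptors and kinases, other NF-kB subunits, and inhibitors. Between the subsets in WT, 26 were called higher in mTEC and 7 higher in cTEC of 80 tested, with a median log2 fold change of 0.60, where 26.8% of all genes tested were called. Of the ligands 6 were higher and 1 lower of 16, of other receptors 6 and 4 of 24, of adaptors and kinases 6 and 1 of 20, and of inhibitors 8 and 0 of 18. In Aβ0/0 the counts were 5 and 2 of 72, with a median of 0.58, where 5.6% of all genes tested were called. These Aβ0/0 calls were fragile, at 1 and 1 with a replicate block and 0 to 2 in all without any 1 of the 6 libraries, while DESeq2 called 16 and 4. In WT the calls numbered 28 with the block, and between 18 and 43 without 1 library. Nfkbia, the IkB protein that retains RelA-containing dimers in the cytoplasm and is itself an NF-kB target, was at 925–1220 CPM in WT mTEC and 245–299 CPM in WT cTEC, a log2 fold change of 1.96 (SE 0.24, adjusted p = 0.0013, edgeR). In Aβ0/0 it was 1.18 (SE 0.25, adjusted p = 0.0393). Nfkb1, the p105 gene of the classical route, was lower in mTEC, at 74.1–92.4 CPM against 239–293 CPM in WT, a log2 fold change of -1.67 (SE 0.21, adjusted p = 0.0016), and of -1.27 in Aβ0/0 (SE 0.30, adjusted p = 0.0498). Nfkb1 and Nfkb2, paralogs with a shared domain plan, were called in opposite directions in both genotypes.

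Among the receptors with the largest mTEC bias in WT were Tnfrsf9, the gene of 4-1BB, at 56.7–77.6 CPM in mTEC and 0.124–2.56 CPM in cTEC, and Relt, at 77.5–84.9 and 0.240–2.29 CPM. Tnfrsf9 was called in Aβ0/0 as well (log2 fold change 7.64, SE 1.72, adjusted p = 0.0444, edgeR), at 3.53–28.2 CPM in mTEC. Tnfrsf4, the gene of OX40, was at 18.8–19.5 CPM in WT mTEC and 0–1.32 CPM in WT cTEC. Tnfrsf25 was called but low, at 0.755–1.24 CPM in WT mTEC. Genes called higher in WT cTEC were Tnfrsf19 (63.5–92.3 CPM against 2.93–8.32 CPM), the ligand gene Eda (17.4–22.8 against 2.87–5.94 CPM) and Tnfrsf1a, the gene of TNF receptor 1 (200–246 against 86.8–111 CPM). Tnfrsf18 (12.8–19.6 against 5.42–7.55 CPM) and Tnfrsf22 (20.3–40.0 against 9.52–11.8 CPM) were called in the same direction. The ligand genes Tnfsf8 and Tnfsf4 were at 0 in WT cTEC. Their mean WT mTEC levels were 115-fold and 31.6-fold a floor of 3 counts over the group. That floor reflects read depth and not the number of sorted cells, which was lower for cTEC than for mTEC in the WT pools. It therefore sets no lower bound on the difference. Summed macrophage genes were at 642–683 CPM in WT mTEC and 74.2–287.6 CPM in WT cTEC, beside the dendritic and B cell genes given above, and their part in these ligand values was not tested. In Aβ0/0 the calls also included Tnfsf10, the TRAIL gene, at 60.5–87.9 CPM in mTEC and 24.6–28.9 CPM in cTEC. Birc3, an inhibitor of apoptosis that sits in the TRAF complex, was at 109–177 and 45.3–60.1 CPM, and Tank, a TRAF-binding protein, at 114–168 and 46.6–75.6 CPM. Cd27, a receptor that thymocytes express, was higher in Aβ0/0 cTEC, at 23.4–41.6 CPM against 1.21–5.31 CPM, beside the thymocyte genes given above.

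**Figure D4:**
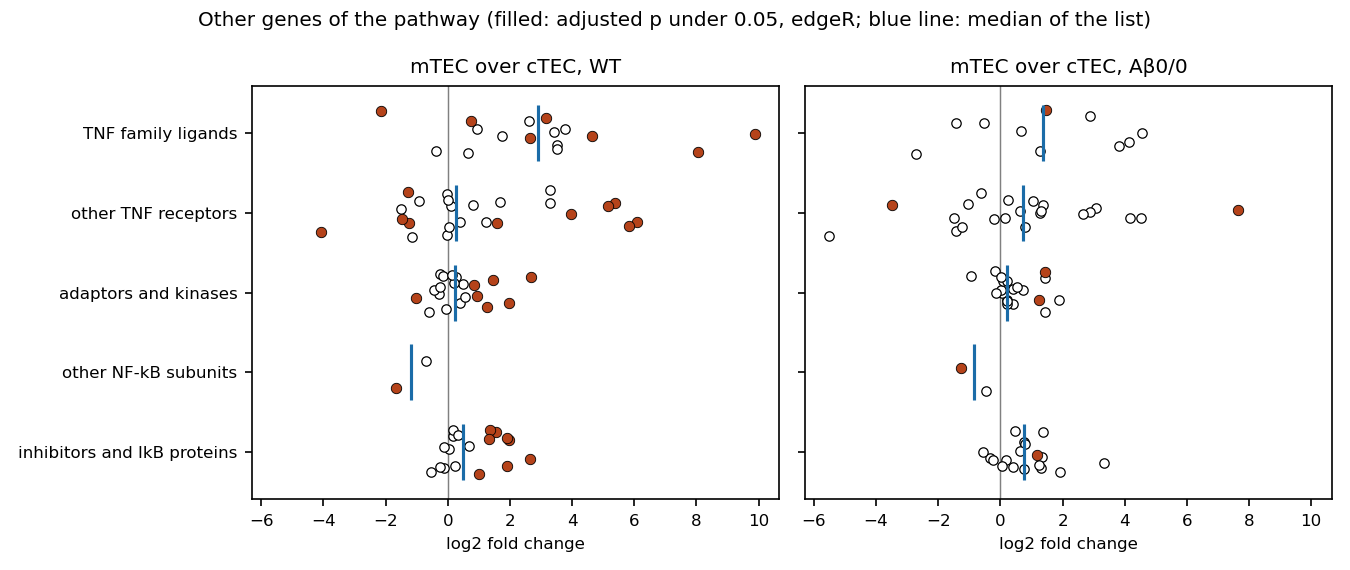
Log2 fold change (mTEC over cTEC) of the other pathway genes tested, by list, in WT (80 genes) and Aβ0/0 (72 genes); filled points have an adjusted p under 0.05 by edgeR and blue lines are list medians. In WT 33 points are filled, 26 of them to the right of 0, and in Aβ0/0 7 points.

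Between the genotypes, 4 of the 80 pathway genes tested in mTEC were called, all higher in WT, which is near the 5.66% of all genes tested and is no result about the pathway. In cTEC edgeR called 0 of 70, and 2 had an unadjusted p under 0.05. The 4 were low: the ligand genes Tnfsf8 (1.85–7.89 CPM in WT mTEC), Tnfsf4 (0.604–1.79 CPM) and Tnfsf14 (0.635–1.02 CPM), and the receptor gene Eda2r (1.88–6.32 CPM), each at 0 in all 3 Aβ0/0 mTEC libraries. The macrophage gene Adgre1 and the dendritic cell gene Itgax, at 11.3–22.3 and 0.469–1.54 CPM in WT mTEC, were at 0 in the same libraries, and their part in these 4 values was not tested. The mean WT mTEC levels of Tnfsf8, Tnfsf4, Tnfsf14 and Eda2r were 112-fold, 31.0-fold, 23.3-fold and 109-fold a floor of 3 counts over the group. That floor reflects read depth and not the number of sorted cells, which was lower in the Aβ0/0 mTEC pools. It therefore sets no lower bound on the difference. These 4 genes had counts in the WT libraries alone, and passed the filter on low counts through them. All 4 calls were lost with no filter on low counts, with a mean of at least 10 counts, with a replicate block, with edgeR on all 12 libraries, and without WT mTEC replicate 1, 2 or 3 or Aβ0/0 mTEC replicate 2 or 3 (edgeR adjusted p between 0.0584 and 0.230). DESeq2 on the 6 libraries called all 4, among 10 higher and 2 lower. The ligands of RANK and CD40 were low in these sorted cells. Tnfsf11, the gene of RANK ligand, was at 0–3.88 CPM and Cd40lg at 0–1.10 CPM over the 12 libraries. Tnfaip3, the feedback inhibitor A20, overlapped in every comparison.

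The genes with the profile most like Cd40 over the 12 libraries, by mean absolute difference of centred log2 CPM among 11019 genes with a mean of at least 10 CPM, were S100a14 (0.43), Ltb (0.44) and S100a3 (0.47), where the median gene differed by 1.41. Ltb encodes lymphotoxin beta, a ligand of the Ltbr product. Nearest to Tnfrsf11a were Fgd5 (0.44), Slc4a8 (0.48) and Fut1 (0.50), and nearest to Tnfrsf11b were Vnn3 (0.36), Bcl2a1b (0.39) and Adam8 (0.41). Bcl2a1b has near-identical copies, so its reads may have been shared among them.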

How the data were processed

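RNA of sorted TEC was amplified with SMART-Seq v4 and sequenced on an Illumina HiSeq instrument. The authors quantified transcripts with Kallisto 0.43 (mm10) and deposited, per library, estimated counts and TPM for 109282 transcripts, plus 1 table of log2-scale rlog values per gene made with DESeq2. Of these transcripts, 107987 matched GENCODE M21 (GRCm38) by identifier; the others held 0.450–0.512% of counts. Deposited estimated counts were summed per gene and rounded; TPM were summed. Library totals ranged from 21710319 to 36139815 estimated counts; with 3 libraries a group, p-values measure the spread between pools.

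Each comparison was fitted across all genes with edgeR 4.0.16 (TMM, filterByExpr, robust quasi-likelihood test) on its own 6 libraries, and the interaction on all 12. P-values were adjusted by Benjamini-Hochberg over all genes tested, with a threshold of 0.05. The comparisons were WT over Aβ0/0 in each subset, mTEC over cTEC in each genotype and their interaction. Alternatives were DESeq2 1.42.0, limma 3.58.1 on rlog values, RLE factors, no filter or a mean of at least 10 counts, coding transcripts only, a replicate block, fits on all 12 libraries and leaving out each library. Scripts were tested on simulated data. R 4.3.3, Python 3.11.15.

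The 10 genes and the lists were chosen with earlier results of these data known. Named pathway genes were those called, at most 6 per direction and comparison with the largest change, plus Tnfsf11, Cd40lg, Nfkb1, Nfkbia and Tnfaip3, H2-Ab1, defining markers and the 3 nearest profiles of Cd40, Tnfrsf11a and Tnfrsf11b; Cd79a, Lyz2 and Dcn were named after their values were seen. Same-numbered cTEC and mTEC libraries of a genotype were taken as one pool, since the study's sorting records list both yields under each replicate. Their deviations from group means correlated at 0.0381 to 0.240 in 6 pairs, and those of same-numbered libraries of different genotypes at -0.0391 to 0.245, so the correlations do not mark out shared mice. Pools are separate sets of mice.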

Additional observations from a re-analysis of the deposited data

Results flagged for a closer look

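The genotype effect on Cd40 went in opposite directions in the subsets: all 3 WT mTEC libraries lay above all 3 Aβ0/0 mTEC libraries, and all 3 WT cTEC libraries lay below all 3 Aβ0/0 cTEC libraries. The difference of the effects was 2.66 on the log2 scale, with an edgeR adjusted p of 0.350, so it failed the correction by that tool and passed it by DESeq2 and by limma.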

How the results depend on the processing

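Between the genotypes in mTEC, 0 genes of the 10 were called under each alternative run. In cTEC DESeq2 on all 12 libraries called 1, Cd40, where it called 351 of 27577 genes tested. In the interaction DESeq2 and limma on rlog values each called 1, Cd40, where they called 398 of 27577 and 943 of 18969. Between the subsets in Aβ0/0, DESeq2 called 5 genes and DESeq2 on all 12 libraries 6, against 3 by edgeR. Of all genes tested, these fits called 2760 of 23087 and 3987 of 27577, against 878 of 15687 by edgeR. The cause was not tested. Leaving out 1 library gave 4–7 calls between the subsets in WT, 2–3 in Aβ0/0 and 0 elsewhere. A fit on 5 libraries keeps fewer degrees of freedom. With the replicate block the counts of the 10 genes were again 6 in WT, 3 in Aβ0/0 and 0 between the genotypes and in the interaction. Of the other pathway genes the block gave 28 calls against 33 in WT, 2 against 7 in Aβ0/0, and 0 against 4 between the genotypes in mTEC. The sorting records list WT and Aβ0/0 under each replicate number, but do not say that the number marks a shared day; same-numbered libraries of the 2 genotypes correlated at -0.0391 to 0.245 within a subset, and not every library correlated best with its own number. Counts over many genes moved far more. Across tools, filters and fits on all 12 libraries, with no library left out, 0–2440 genes were called between the genotypes in mTEC (1054 as reported), 0–351 in cTEC (3), 2760–6891 between the subsets in WT (4997), 566–3987 in Aβ0/0 (878) and 0–943 in the interaction (2). Leaving out 1 library gave 3395–7572 genes between the subsets in WT and 338–456 in Aβ0/0. Of the other pathway genes, whose alternatives were added after seeing the data, with single libraries left out as well, the ranges were 0–12 (4), 0–2 (0), 18–43 (33), 0–28 (7) and 0–3 (0). Over single genes, no called value changed sign, 12 values gained and 13 lost a call, and 765 did neither. Of 40 median transcript shares 15 moved by more than 1 SD when counts replaced TPM. Each group held 3 libraries, which bounds what could be called; Cd40 rested on 310 estimated counts or more in every library.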
